A study of Homo sapiens with 23 samples.

Results

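The comparison is between 24 h and 4 h of tamoxifen in human mammary epithelial cells depleted of STAT3, and it uses 5 of the 23 expression arrays of the series. The arrays were chosen by their titles, which name STAT3 siRNA, tamoxifen and the hour. At 24 h there were 2 arrays, replicates 2 and 3, and at 4 h there were 3, replicates 1 to 3. The cells were MCF-10A-ER-Src. MCF-10A grows from breast epithelium and does not form tumours, and the added ER-Src oncogene stays off until tamoxifen binds its receptor portion and activates the kinase. They received 25 nM of an ON-TARGETplus SMARTpool against STAT3 (siSTAT3), grew for 48 h, and were then given 1 µM 4-hydroxytamoxifen (TAM) for 24 h or for 4 h. The remaining arrays, 3 per group, were siSTAT3 cells with the vehicle ethanol (EtOH) at 24 h and at 4 h, and cells with a non-targeting siRNA pool (siSCM) given TAM or EtOH for the same hours. All groups grew in medium with charcoal-stripped horse serum, EGF, hydrocortisone, cholera toxin and insulin. The line is 1 engineered line and the depletion is by 1 siRNA pool. Time on TAM, time in culture and time after transfection differ together between 24 h and 4 h. The gene counts and part of the results are therefore also set beside the same hours in EtOH, which lack the drug. Part are set beside the same hours of TAM in siSCM cells, which keep STAT3. A result given without such values is a change over these hours and is not tied to TAM. The study's methods call the replicates biological, and whether each had its own culture and transfection is not given in the sources used here, so the p-values measure the spread between these samples.

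Src is a tyrosine kinase that activates several pathways at once, among them MAP kinase signalling, NF-κB and STAT3. In this line its activation is known to start an inflammatory programme in which NF-κB raises IL6, IL6 acts through its receptor on STAT3, and the cells become transformed over about a day. STAT3 is a transcription factor of the JAK kinase pathway, and without it the later hours of TAM show which RNA levels still move when that branch of the programme is weakened.

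Over the 23 arrays the median signal lay between 73.5 and 85.3 units, where a unit is 1 unit of the deposited linear signal, and 44.6% to 46.9% of the probe sets were over 100 units. For ACTB, the 3′ probe set over the 5′ probe set, a measure of RNA integrity, ranged from 1.21 to 1.44 and was 1.21 on both 24 h arrays and on 4 h replicate 1. The 24 h replicate 3 array had the highest bioC, bioD and cre spike controls of the series (3056, 13824 and 38072 units). STAT3 itself measured 441 and 359 units at 24 h, against 475, 406 and 393 units at 4 h in siSTAT3 cells given TAM. In siSCM cells given TAM it measured 6753, 5955 and 5650.1 units at 24 h, against 5626, 5974 and 5128 units at 4 h. All 5 siSTAT3 arrays were thus far below all 6 siSCM arrays, and the depletion did not differ detectably between the hours (log2 difference -0.09, SE 0.15, adjusted p = 0.816).

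Markers of 5 cell types were read at both hours, each as a description of its own probe set. The basal keratins KRT5 and KRT14 averaged 15591 and 11958 units at 24 h, against 15879 and 10328 units at 4 h, and the sum of 6 basal markers was 47375 to 54534 units at 24 h and 50292 to 56424 units at 4 h. The sum of 10 luminal markers was 41571 to 49317 units at 24 h and 41258 to 47470 units at 4 h, with KRT19, PGR and ELF5 under 34 units in both groups. Single members did move, since the basal marker ITGB4 and the luminal markers ESR1 and MUC1 rose. The ESR1 call was lost with arrays centred on their medians, without either 24 h array and without 4 h replicate 2 or 3. The MUC1 call was lost without 24 h replicate 3. Of 10 fibroblast markers, 4 had a group mean of at least 100 units anywhere in the series. The sum of all 10 was 8167 to 8352 units at 24 h and 4219 to 4266 units at 4 h. That shift came from POSTN, FAP and COL1A1, while COL1A2, COL3A1, LUM, THY1, PDGFRA and PDGFRB stayed under 53 units in both groups. Of 8 immune markers the leukocyte antigen PTPRC averaged 30.2 units at 24 h and 33.3 units at 4 h, and of 8 endothelial markers CDH5 averaged 9.96 units at 24 h and 9.30 units at 4 h. The summed immune markers were 837 to 1011 units at 24 h and 602 to 772 units at 4 h, with CD14 the 1 member that rose, and the endothelial sum was 492 to 506 units at 24 h and 296 to 359 units at 4 h, with PECAM1 the 1 that rose. The calls of CD14 and PECAM1 were lost without 24 h replicate 3 (adjusted p = 0.106 for CD14 and 0.0880 for PECAM1), that of PECAM1 also without 24 h replicate 2 (adjusted p = 0.0855) or 4 h replicate 2 (adjusted p = 0.0537). In bulk RNA, a change in the share of cells of a type and a change in RNA per cell cannot be told apart.

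Over a day of TAM, siSTAT3 cells gained RNA for part of the cornified envelope, interferon-stimulated, mitotic, sterol synthesis and mesenchymal genes. They lost RNA for NF-κB targets and cytokines, the serum response factor and its actin targets, activin and BMP pathway genes, EGF family ligands and a set of junction genes. Of 19775 genes, each represented by its brightest probe set, 1795 rose (9.08%) and 1018 fell (5.15%) at an adjusted p under 0.05 by limma, which fitted 1 mean for each of the 8 groups over all 23 arrays. A change is given as log2 of the signal at 24 h minus log2 at 4 h, its error is the standard error (SE), and "rose" or "fell" is used for genes past that threshold. By size, 385 of the called genes rose by at least 1 on the log2 scale and 190 fell by at least that much. The arrays of the 2 times did not overlap for 2810 of the 2813 called genes, a property that 40.9% of all genes shared. The median change of all genes was 0.06. Each list count below is to be read beside the shares of all genes, 9.08% that rose and 5.15% that fell. A count near these shares is no result about its list. Fitted to the 5 arrays alone, limma called no gene (lowest adjusted p 0.057), with 2080 genes higher and 1316 lower at an unadjusted p under 0.05, so the calls rest on the spread borrowed from the other groups. Without 24 h replicate 3, 975 genes rose and 592 fell, and without 24 h replicate 2, 1271 rose and 807 fell; in each case the lone remaining 24 h array was taken to vary like the other groups.

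The same hours in vehicle gave calls of similar number. In siSTAT3 cells with EtOH, 1610 genes rose (8.14%) and 1044 fell (5.28%) between 4 h and 24 h. Of the genes that rose in TAM, 1042 also rose in EtOH, which is 58.1% of the TAM list and 64.7% of the EtOH list, and 6 fell there. Of the genes that fell in TAM, 636 also fell in EtOH, 62.5% of the TAM list and 60.9% of the EtOH list, and 3 rose there. The time change in TAM minus that in EtOH passed its own test for 83 genes in the positive direction (0.42%) and 23 in the negative (0.116%). Most called genes therefore had no detectable difference between TAM and EtOH in how they moved with time.

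In siSCM cells given TAM, 2232 genes rose (11.3%) and 1949 fell (9.86%) over the same hours. Of the genes that rose in siSTAT3 cells, 1011 rose in siSCM cells too, 56.3% of the siSTAT3 list and 45.3% of the siSCM list, and 61 fell. Of those that fell in siSTAT3 cells, 702 fell in siSCM cells too, 69.0% of the siSTAT3 list and 36.0% of the siSCM list, and 32 rose. The time change in siSTAT3 cells, less the siSCM one, was positive and past its test for 585 genes (2.96%) and negative for 421 (2.13%).

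**Figure D1:**
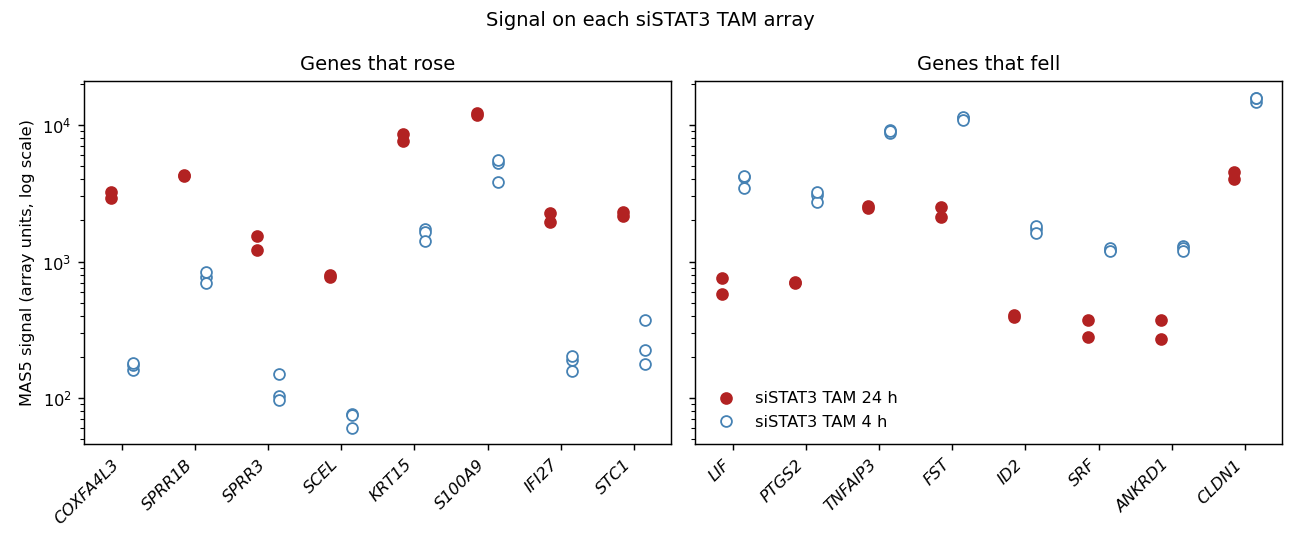
Signal of 16 genes on each siSTAT3 TAM array, with 24 h (2 arrays) left of 4 h (3 arrays) for each gene, on a log axis in units. The 24 h points of COXFA4L3, SPRR1B, SPRR3, SCEL, KRT15, S100A9, IFI27 and STC1 all lie above their 4 h points, and those of LIF, PTGS2, TNFAIP3, FST, ID2, SRF, ANKRD1 and CLDN1 all lie below.

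The 15 largest rises by the naming rule included the cornified envelope and skin protease genes SPRR3, SCEL, S100A7, KLK5 and KLK10. COXFA4L3, also among the 15, whose product is related to a subunit of cytochrome c oxidase, measured 3222 and 2923 units at 24 h, against 161, 174 and 180.5 units at 4 h, a log2 change of 4.16 (SE 0.29, adjusted p = 1.19e-07). SPRR3, a small proline-rich protein of the cornified envelope, measured 1214 and 1536 units at 24 h, against 104, 149.9 and 96.4 units at 4 h (log2 3.57, SE 0.47, adjusted p = 7.88e-05). SCEL, sciellin, a precursor of the same envelope, measured 764 and 796 units at 24 h, against 76.3, 60.6 and 74.6 units at 4 h (log2 3.48, SE 0.60, adjusted p = 0.001). The rule took only genes whose arrays did not overlap between the times, so their separation is no result. Other members of the 15 largest rises were low at 4 h, so their folds depend on how low signals are treated. KLK5, a kallikrein protease active in skin shedding, measured 375 and 412 units at 24 h, against 52.4, 5.14 and 45.7 units at 4 h. KLK10, another kallikrein, measured 62.0 and 145 units at 24 h, against 3.85, 4.09 and 2.56 units at 4 h. With signals under 32 units set to 32, the log2 change of KLK5 went to 3.21 in place of 4.09, and that of KLK10 to 1.57 in place of 4.79, both still past the threshold. Such an effect of low signals applies to the named genes S100A7 (1.76 in place of 3.77), GJA5 (2.65 in place of 3.93), SYT14 (2.17 in place of 3.58), EYA1 (2.25 in place of 3.29) and MIR210HG (2.49 in place of 3.37) as well. The rest of the 15 were the keratin KRT13 (log2 3.53), the cytokine IL32 (log2 3.65), the non-coding RNA LINC01133 (3.95), IFI27 and STC1. With signals under 32 units set to 32 the change was 2.99 for KRT13, 3.2 for IL32 and 3.72 for LINC01133. The calls of KRT13, GJA5 and SYT14 were lost without 24 h replicate 2 (adjusted p = 0.119, 0.0935 and 0.0656) and without 24 h replicate 3 (adjusted p = 0.125, 0.0965 and 0.0610), and that of KRT13 also without 4 h replicate 1 (adjusted p = 0.103).

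**Figure D2:**
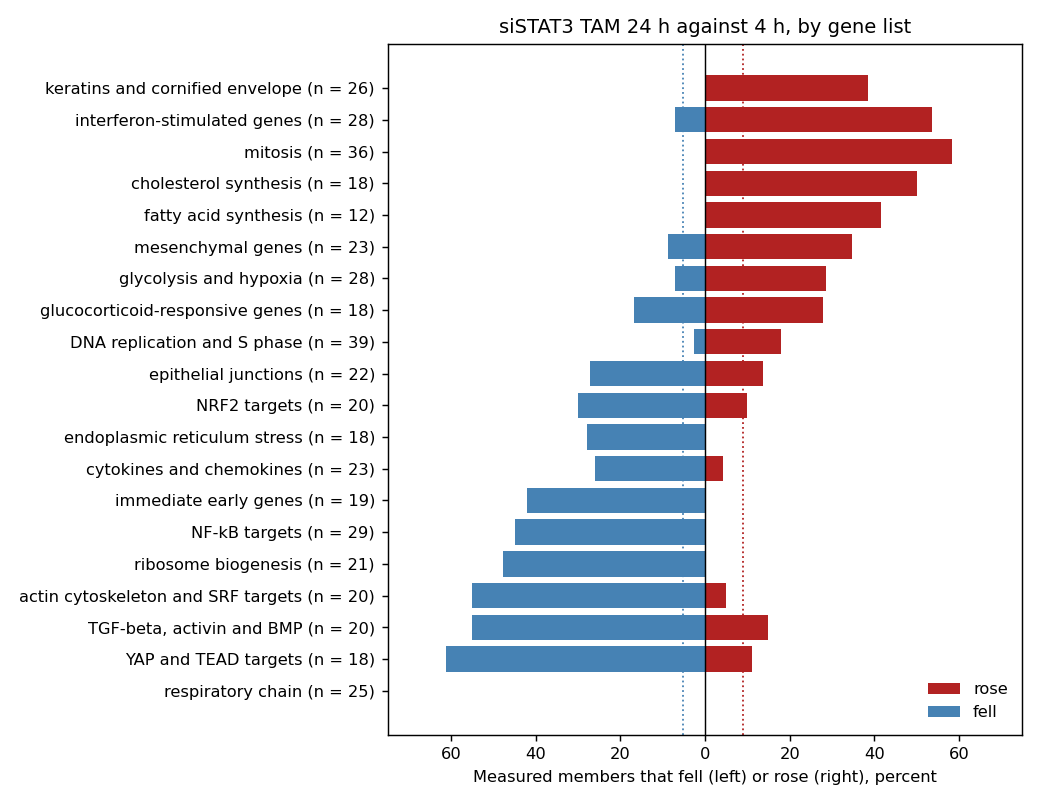
Share of each of 20 gene lists, in percent of the measured members, that rose (bars to the right) or fell (bars to the left) at 24 h against 4 h of TAM in siSTAT3 cells at an adjusted p under 0.05. The dotted lines mark 9.08% and 5.15%, the shares over all genes, and mitosis, interferon-stimulated genes and sterol synthesis reach far to the right, while TGF-beta, YAP, actin and NF-κB genes reach far to the left.

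Of 26 keratins and cornified envelope genes, 10 rose and none fell, and the median change was 0.71 beside 0.06 over all genes. With signals under 32 units set to 32 the median was 0.29, beside 0 over all genes. SPRR1B and SPRR1A, small proline-rich proteins that are cross-linked into the envelope, both rose. SPRR1B measured 4322 and 4255 units at 24 h, against 767, 697 and 832 units at 4 h (log2 2.49, SE 0.20, adjusted p = 4.76e-07). SPRR1A measured 1089 and 1154 units at 24 h, against 212, 206 and 319 units at 4 h (log2 2.22, SE 0.31). KRT15, a keratin of basal cells, measured 7615 and 8572 units at 24 h, against 1722, 1649.7 and 1408 units at 4 h (log2 2.35, SE 0.14, adjusted p = 2.16e-08). The calprotectin subunits moved by less but from a high level. S100A8 measured 21138 and 23631 units at 24 h, against 9753, 11132 and 6316 units at 4 h (log2 1.34, SE 0.16), and S100A9 measured 11831 and 12205 units at 24 h, against 5297, 5499.5 and 3835 units at 4 h (log2 1.32, SE 0.12). TGM1, the transglutaminase that cross-links the envelope, measured 1802 and 2063 units at 24 h, against 1319.5, 1245 and 942 units at 4 h (log2 0.74, SE 0.19, adjusted p = 0.019), and involucrin, IVL, one of its substrates, rose by 1.46 from signals under 40 units. The TGM1 call was lost without 24 h replicate 3 (adjusted p = 0.180), 24 h replicate 2 (adjusted p = 0.0509) or 4 h replicate 3 (adjusted p = 0.0751) and with arrays centred on their medians (adjusted p = 0.0676), and the IVL call without 24 h replicate 3 (adjusted p = 0.0746). The other 16 members did not pass the test, among them the listed envelope genes FLG, SBSN and CNFN. They also included the keratins KRT5, KRT14, KRT8 and KRT18, with log2 changes of -0.04, 0.21, 0.15 and -0.03. In EtOH, 10 of the 26 rose and none fell. KRT75, a keratin of the hair follicle outside the list, moved the other way, with 61.0 and 60.5 units at 24 h, against 1006, 903 and 995 units at 4 h (log2 -3.99, SE 0.49, adjusted p = 4.00e-05).

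Interferons are secreted antiviral signals that act through the kinases JAK1 and TYK2 on a transcription factor complex that contains IRF9 and binds the interferon-stimulated response element in promoters. Part of that element, AANNGAAAC, was searched on both strands in RefSeq promoters of GRCh38.p14, windows of 250 bases before to 50 bases after each gene's start. It was found in 19 of 22 interferon-list promoters (86.4%), in 11 of the 13 whose genes rose (84.6%) and in 5.36% of all 27305 promoters; the letters were chosen after the values were seen and give a description, not a site. The stretch up to the start is shown for 4 of the 5 list members that rose more in TAM than in EtOH, IFI27 (chr14:94110607-94110735, plus strand), IFI6 (chr1:27672193-27672366, minus strand), IFI44 (chr1:78649750-78649788, plus strand) and ISG15 (chr1:1013366-1013496, plus strand), read 5′ to 3′ with matches in capitals and overlapping matches merged. The remaining member, ISG20, is not shown.
IFI27: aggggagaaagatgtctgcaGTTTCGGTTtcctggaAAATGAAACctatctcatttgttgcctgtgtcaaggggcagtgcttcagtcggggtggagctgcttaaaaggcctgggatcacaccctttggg
IFI6: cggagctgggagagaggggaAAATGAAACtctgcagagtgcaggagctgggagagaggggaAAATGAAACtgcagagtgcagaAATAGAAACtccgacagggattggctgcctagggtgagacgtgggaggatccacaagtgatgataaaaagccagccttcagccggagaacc
IFI44: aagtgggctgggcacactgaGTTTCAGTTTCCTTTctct
ISG15: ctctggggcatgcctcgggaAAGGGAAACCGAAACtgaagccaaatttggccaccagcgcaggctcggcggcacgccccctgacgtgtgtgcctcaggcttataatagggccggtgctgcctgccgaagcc

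Of 28 interferon-stimulated genes, 15 rose and 2 fell, with a median change of 0.69. IFI27, a mitochondrial protein induced by type I interferon, measured 1963 and 2261 units at 24 h, against 157, 189 and 203 units at 4 h (log2 3.53, SE 0.19, adjusted p = 1.15e-08). In EtOH it measured 236, 207 and 233 units at 24 h, against 140.0, 184 and 103 units at 4 h (log2 0.70, SE 0.17), and the difference between the time changes was 2.83 (SE 0.26, adjusted p = 5.83e-05). The rule took IFI27 for the size of this difference, so the height of its 24 h TAM arrays is no separate result. IFI6, a regulator of cell death in infected cells, measured 537 and 597 units at 24 h, against 157, 155 and 174 units at 4 h (log2 1.81, SE 0.24). IFI44 measured 805 and 756 units at 24 h, against 228, 241 and 236 units at 4 h (log2 1.73, SE 0.13). ISG15, a ubiquitin-like protein that is conjugated to others, measured 580.4 and 618 units at 24 h, against 258, 248 and 294 units at 4 h (log2 1.17, SE 0.14). The exonuclease gene ISG20 measured 616 and 588 units at 24 h, against 171, 165 and 173 units at 4 h (log2 1.83, SE 0.14). For these 4 genes too the TAM change was larger than the EtOH change, by 1.55 for IFI6, 1.01 for IFI44, 1.16 for ISG15 and 1.12 for ISG20, each past its test. OAS1, OAS2 and OAS3, sensors of double-stranded RNA, rose by 1.46, 1.11 and 0.90, and IFIT1 and IFIT3, which bind viral RNA, by 1.26 and 1.08. The 2 that fell were IFIT5 (-0.32) and the transcription factor IRF1 (-0.50), and the antiviral GTPase MX1 (0.42, adjusted p above the threshold) and the interferon complex subunit IRF9 (0.12) did not pass. In EtOH 9 of the 28 rose and 2 fell. The calls of IFIT1 (adjusted p = 0.143), BST2 (0.124) and IFIT2 (0.0696) were lost without 24 h replicate 3, those of OAS2 (adjusted p = 0.179) and IRF1 (0.176) without 24 h replicate 2 and, at 0.0686 and 0.0712, without 4 h replicate 2, that of IFIT2 also without 24 h replicate 2 (0.0509), and that of IFIT5 without any 1 of the 5 arrays (adjusted p = 0.0588 to 0.196).

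**Figure D3:**
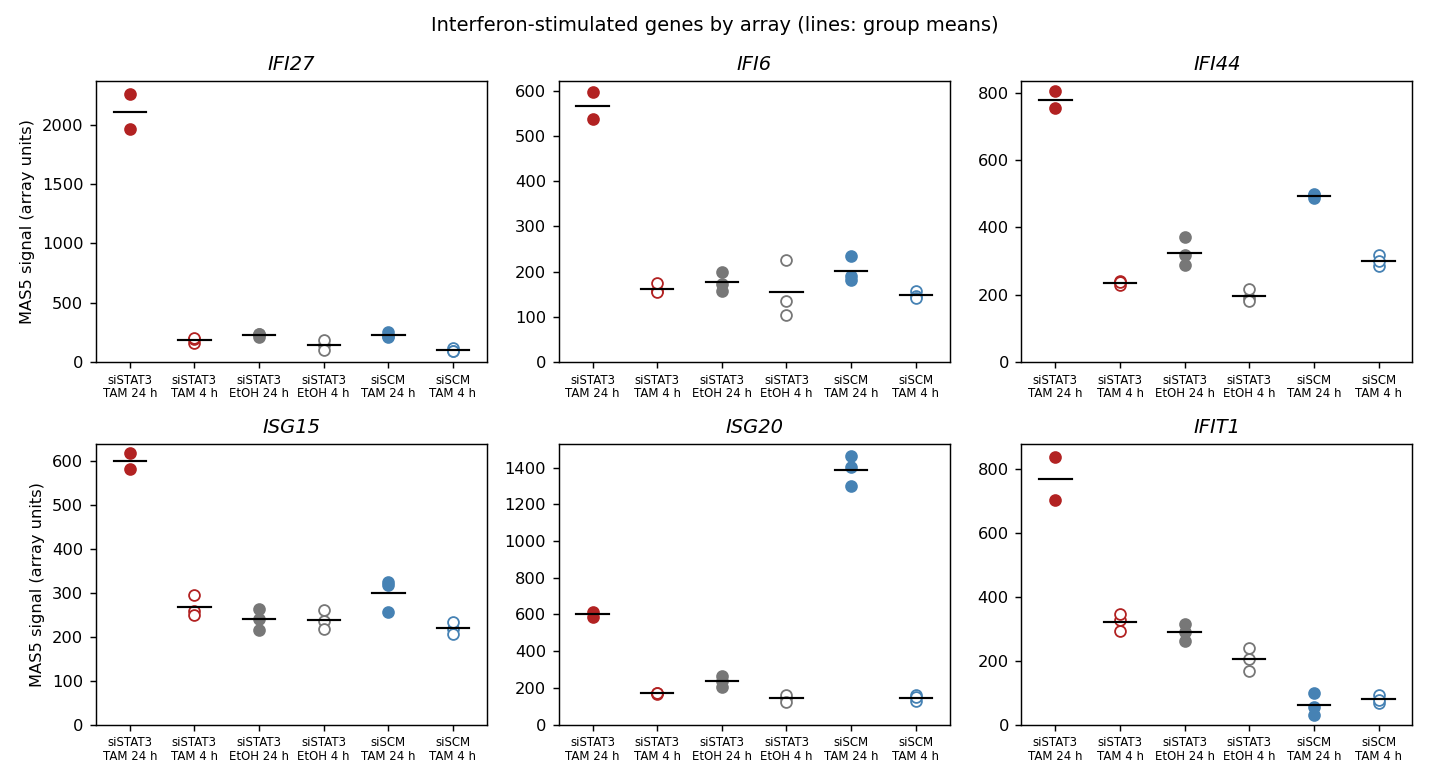
Signal in units, on linear axes that start at 0, of IFI27, IFI6, IFI44, ISG15, ISG20 and IFIT1 on each array of 6 groups, siSTAT3 TAM, siSTAT3 EtOH and siSCM TAM, each with 24 h left of 4 h, where points are arrays and lines are group means. The siSTAT3 TAM 24 h arrays are the highest for all but ISG20, which reaches 1302 to 1463 units in siSCM TAM at 24 h.

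Mitotic genes share a promoter element, the cell cycle genes homology region (CHR), through which the DREAM and MuvB complexes hold them off in resting cells and switch them on late in the cycle. The letters TTTGAA or TTCGAA, searched on both strands, were found in 21 of 29 promoters of the mitosis list (72.4%), in 11 of the 17 whose genes rose (64.7%) and in 16.6% of all promoters, and the inverted CCAAT box ATTGG in 24 of 29 (82.8%) and in 35.7% of all. The stretch up to the start is given for 3 members that rose, HMMR (chr5:163460584-163460631), CCNB2 (chr15:59105097-59105145) and PLK1 (chr16:23678840-23678888), all on the plus strand, with the CHR letters in capitals.
HMMR: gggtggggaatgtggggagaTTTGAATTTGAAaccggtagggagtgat
CCNB2: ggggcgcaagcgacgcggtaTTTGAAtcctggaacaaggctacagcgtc
PLK1: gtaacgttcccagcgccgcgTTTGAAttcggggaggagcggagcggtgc

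Of 36 mitosis genes, 21 rose and none fell, and the median change was 0.38. With arrays centred on their medians the calls of CCNB1, CCNF, CENPA, FOXM1 and TOP2A were lost (limma, adjusted p = 0.0651 to 0.164). Without 4 h replicate 1 the lost calls included CCNF, CENPA, FOXM1 and TOP2A, and without 4 h replicate 3 CCNB1, CENPA and TOP2A. Without 24 h replicate 3 the log2 changes of CCNB1 and CENPA were 0.25 and 0.28. CDC25C, the phosphatase that releases CDK1 for entry into mitosis, measured 933 and 1029 units at 24 h, against 352, 436 and 455 units at 4 h (log2 1.25, SE 0.14, adjusted p = 2.26e-05). HMMR, a spindle protein, measured 5985 and 5085 units at 24 h, against 2501, 2560.2 and 2693 units at 4 h (log2 1.09, SE 0.09). BUB1B, a kinase of the spindle checkpoint, measured 3536 and 3508 units at 24 h, against 1743, 1697 and 1695 units at 4 h (log2 1.04, SE 0.10). Rises were also called for CENPF, a kinetochore protein (log2 0.97, SE 0.08), KIF20A (0.92) and TTK (0.91). PLK1, a mitotic kinase, rose by 0.65 and CCNB2, a B-type cyclin, by 0.44, while CDK1 (-0.20), the cyclin partner, and MAD2L1 (0.04) did not pass. Of 39 genes of DNA replication and S phase, 7 rose and 1, the clamp loader subunit RFC3, fell, with a median of 0.21. E2F2, a transcription factor of the S phase programme, measured 487 and 451 units at 24 h, against 185, 219 and 235 units at 4 h (log2 1.14, SE 0.11). ORC1 of the origin recognition complex (0.91), the primase PRIM1 (0.75) and UHRF1 (0.71) rose too, and PCNA, the sliding clamp, had a change of 0.11 that did not pass. In EtOH 25 of the 36 mitosis genes and 22 of the 39 replication genes rose, and no member of either list had a TAM change that differed from that in EtOH. Without 24 h replicate 2 the replication list had 4 members that rose. The calls of PLK1 (adjusted p = 0.0595) and RFC3 (0.403) were lost without 24 h replicate 3, and that of RFC3 also without 4 h replicate 1 or 3 (adjusted p = 0.161 and 0.121) and with the replicate block (0.0822).

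The sterol pathway builds cholesterol from acetyl-CoA and is governed by the SREBP transcription factors. Of 18 cholesterol synthesis genes, 9 rose and none fell, with a median of 0.39. In EtOH 7 of the 18 rose and none fell, with a median of 0.35. No member had a TAM change that differed from that in EtOH past the test. The sterol regulatory element letters TCACCCCAC, searched on both strands, were in 1 of 17 promoters of the list (5.88%), in none of the 8 whose genes rose, and in 0.425% of all promoters. HMGCS1, which makes the substrate of the rate-limiting step, measured 5008 and 5238 units at 24 h, against 3153, 3076 and 2962 units at 4 h (log2 0.74, SE 0.10, adjusted p = 0.000111). LSS, which closes the sterol rings, measured 2879.8 and 3621 units at 24 h, against 1944, 2082 and 2323 units at 4 h (log2 0.61, SE 0.14), and HSD17B7 rose by 0.60. Of 12 fatty acid synthesis genes 5 rose and none fell, and in EtOH 3 rose and none fell. ELOVL6, an elongase, measured 8344 and 7703 units at 24 h, against 3484, 3475 and 4170.3 units at 4 h (log2 1.12, SE 0.13, adjusted p = 2.06e-05), and the carboxylase ACACA rose by 0.57. FASN, the fatty acid synthase, had a change of 0.05 that did not pass. The sterol count depends on 1 array, since without 24 h replicate 3 only 2 of the 18 rose, and LSS (adjusted p = 0.142), IDI1 (0.0976), FDPS (0.0724), MSMO1 (0.107) and SQLE (0.0619) were among the calls lost. The fatty acid count was 3 without 24 h replicate 2 or 3.

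Genes linked to a mesenchymal state moved in part. Of 23, 8 rose and 2 fell, with a median of 0.48, or 0.26 with signals under 32 units set to 32. In EtOH 3 of the 23 rose and 5 fell. TWIST1, a transcription factor that drives loss of epithelial traits, measured 1222 and 1109 units at 24 h, against 614, 604 and 639 units at 4 h (log2 0.91, SE 0.10, adjusted p = 2.11e-05). SNAI2, a repressor of E-cadherin, measured 3923 and 4026 units at 24 h, against 2603, 2584 and 2523 units at 4 h (log2 0.63, SE 0.09). ZEB1, another such repressor, measured 1222 and 1160.0 units at 24 h, against 763, 805 and 772 units at 4 h (log2 0.61, SE 0.08), and ZEB2 rose by 1.25. Vimentin, VIM, (0.06) and N-cadherin, CDH2, (0.24) did not pass, and smooth muscle actin ACTA2 (-0.67) and TGFB2 (-1.55) fell. Fibronectin, FN1, rose by 0.53, a call lost without 24 h replicate 3 (adjusted p = 0.0566), when 5 of the 23 rose. The fibroblast marker sum given earlier was higher at 24 h too, with COL1A2, COL3A1 and PDGFRA at low signals in both groups, and its part in these changes was not tested. Among other matrix genes COL13A1, a membrane collagen, measured 734 and 719 units at 24 h, against 120.0, 122 and 135 units at 4 h (log2 2.53, SE 0.20, adjusted p = 3.86e-07). MMP9, a gelatinase, measured 383 and 332 units at 24 h, against 112, 121 and 97.5 units at 4 h (log2 1.70, SE 0.29, adjusted p = 0.000825). On the falling side were the matrix protein THBS1, with 11519 and 11153 units at 24 h, against 22476, 24478 and 23425 units at 4 h (log2 -1.05, SE 0.14), and the urokinase receptor PLAUR, with 5584 and 6342 units at 24 h, against 12410.0, 12455 and 12583 units at 4 h (log2 -1.07, SE 0.16).

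Genes that respond to glucocorticoids or to low oxygen moved in both directions within their lists. Hydrocortisone was in the medium of all groups. TSC22D3, known as GILZ and induced by glucocorticoids, measured 1728 and 1845 units at 24 h, against 606, 529 and 563 units at 4 h (log2 1.66, SE 0.14, adjusted p = 1.12e-06). KLF9, a transcription factor of the same response, measured 283 and 302 units at 24 h, against 79.4, 81.1 and 125 units at 4 h (log2 1.65, SE 0.22). FKBP5, a chaperone of the receptor, had a change of 0.13 that did not pass. Of the 18 genes listed 5 rose and 3 fell, CEBPD and ERRFI1 among the latter, and in EtOH 5 rose and 2 fell. The median change of the list was 0.10, beside 0.06 over all genes. Of 28 glycolysis and hypoxia genes 8 rose and 2 fell, 4 rising without 24 h replicate 2 and 4 without 24 h replicate 3. BNIP3, a mitophagy receptor induced by hypoxia, measured 4201 and 4169 units at 24 h, against 2509, 2441 and 2421 units at 4 h (log2 0.77, SE 0.11). STC1, stanniocalcin, a secreted glycoprotein, measured 2322 and 2146 units at 24 h, against 372, 225 and 177 units at 4 h (log2 3.18, SE 0.29, adjusted p = 2.15e-06), and 394, 355 and 287 units at 24 h, against 129, 126 and 122 units at 4 h in EtOH. Enzymes of the core pathway such as LDHA (0.10), PGK1 (0.13) and GAPDH (0.09) did not pass. In EtOH 5 of the 28 glycolysis and hypoxia genes rose and 2 fell. None of 25 respiratory chain genes passed in either direction, and their median change was -0.005.

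NF-κB is a dimeric transcription factor held in the cytoplasm by IκB proteins until inflammatory signals release it, and its targets include cytokines and its own inhibitors. The letters GGGACTTTC or GGGAATTTC, searched on both strands, were found in 8 of 25 promoters of the NF-κB list (32%), in 3 of the 11 whose genes fell (27.3%) and in 0.707% of all promoters. They are shown in capitals in the stretch up to the start of those 3, a subunit and 2 inhibitors of the pathway, TNFAIP3 (chr6:137867173-137867258, plus strand), NFKB1 (chr4:102501290-102501358, plus strand) and NFKBIA (chr14:35404750-35404849, minus strand).
TNFAIP3: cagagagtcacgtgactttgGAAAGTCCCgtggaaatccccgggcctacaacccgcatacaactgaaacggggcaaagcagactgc
NFKB1: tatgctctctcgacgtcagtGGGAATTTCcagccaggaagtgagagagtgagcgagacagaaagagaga
NFKBIA: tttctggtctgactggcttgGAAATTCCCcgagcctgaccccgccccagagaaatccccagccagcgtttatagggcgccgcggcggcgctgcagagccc

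Of 29 NF-κB targets, none rose and 13 fell, and the median change was -0.54. LIF, a cytokine of the IL6 family, measured 582 and 762 units at 24 h, against 3462, 4157 and 4235 units at 4 h (log2 -2.56, SE 0.17, adjusted p = 8.77e-08). PTGS2, the inducible cyclooxygenase, measured 691 and 706 units at 24 h, against 3047, 2727 and 3249 units at 4 h (log2 -2.10, SE 0.20). TNFAIP3, the A20 inhibitor, measured 2537 and 2473 units at 24 h, against 8676, 9147 and 9110.1 units at 4 h (log2 -1.84, SE 0.11). Both 24 h arrays of each lay below all 4 h arrays, which the naming rule had required of LIF and PTGS2. Nearly all called genes had arrays that did not overlap, so this is no separate result. NFKB1, the p105 and p50 subunit, measured 749 and 755 units at 24 h, against 1472, 1503 and 1218 units at 4 h (log2 -0.89, SE 0.13), and IL6 measured 99.5 and 124 units at 24 h, against 303, 459.7 and 406 units at 4 h (log2 -1.79, SE 0.30, adjusted p = 0.000839). IL1A, the alpha form of interleukin 1, measured 3532 and 3372 units at 24 h, against 7962, 8283 and 8099 units at 4 h (log2 -1.23, SE 0.09). The neutrophil chemokines CXCL1 (-0.10) and CXCL8 (-0.12) and the cytokine TNF (-0.26) did not pass. In EtOH 17 of the 29 fell, and of the 23 cytokines and chemokines described next 10 fell and 1 rose there. Of 23 cytokines and chemokines 6 fell and 1 rose, the granulocyte factor CSF3, with 946 and 834 units at 24 h, against 313, 493 and 517 units at 4 h (log2 1.04, SE 0.22). CXCL10, a chemokine that draws T cells, measured 108 and 129 units at 24 h, against 488, 552 and 597 units at 4 h (log2 -2.21, SE 0.53, adjusted p = 0.0108), a call lost without 24 h replicate 2 (adjusted p = 0.0808) or 3 (0.0614). Without 24 h replicate 2, 3 cytokines fell, and the calls of IL1B (adjusted p = 0.0812) and NFKBIA (0.239) were lost; the call of NFKBIA was lost without any of the 4 h arrays too (adjusted p = 0.0565 to 0.0697).

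Serum response factor (SRF) with its actin-regulated cofactors drives cytoskeletal genes, and YAP with TEAD factors drives an overlapping set in spread cells. The stretch before the SRF start (chr6:43171220-43171268, plus strand) is shown because the gene was itself among those that fell. The capitals mark a match to CCATATTAG or CCTTATATG, serum response element letters searched on both strands, which 2 of 14 promoters of immediate early genes (14.3%) and 0.212% of all promoters held.
SRF: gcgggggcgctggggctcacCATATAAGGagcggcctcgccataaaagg

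Of 19 immediate early genes, 8 fell and none rose, with a median of -0.29. SRF measured 281 and 371 units at 24 h, against 1212, 1265 and 1193 units at 4 h (log2 -1.92, SE 0.17, adjusted p = 1.98e-06). FOS (0.18), JUN (0.01) and EGR1 (-0.06), the classic early transcription factors, did not pass. ATF3, a stress-induced factor, fell by 1.17 and MYC by 0.44. Without 24 h replicate 3, 5 of the 19 fell, and the calls of MYC (adjusted p = 0.0971), EGR3 (0.186) and NR4A1 (0.470) were lost, and without 4 h replicate 2, 5 fell as well. Of 20 actin and SRF target genes 11 fell and 1, TAGLN2, rose, with a median of -0.57. The TAGLN2 call was lost without 24 h replicate 3 (adjusted p = 0.316) or 4 h replicate 2 (0.0612). ZYX, zyxin of focal adhesions, measured 396 and 303 units at 24 h, against 681, 794 and 791 units at 4 h (log2 -1.12, SE 0.13), FHL2 fell by 1.04 and vinculin, VCL, by 0.83. Of 18 YAP and TEAD targets 11 fell and 2 rose, with a median of -0.45. CCN2, connective tissue growth factor, measured 2117 and 2097 units at 24 h, against 6151, 6651 and 6061 units at 4 h (log2 -1.58, SE 0.10, adjusted p = 6.53e-08). ANKRD1 measured 374 and 272 units at 24 h, against 1305, 1255 and 1185 units at 4 h (log2 -1.97, SE 0.18). The 2 that rose were NT5E, an ectonucleotidase (1.12), and AMOTL1 (0.49). In EtOH 12 of the actin genes, 13 of the YAP targets and 9 of the immediate early genes fell. None of the actin genes, 1 of the YAP targets and 1 of the immediate early genes rose there.

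Activins and BMPs belong to the TGF-beta family and signal through SMAD proteins, with ID genes as targets of the BMP branch. Of 20 genes of these pathways, 11 fell and 3 rose, with a median of -0.59. In EtOH 12 of the 20 fell and none rose, with a median of -0.96. FST, follistatin, which neutralises activin, measured 2118 and 2518 units at 24 h, against 11197, 11539 and 10949.9 units at 4 h (log2 -2.28, SE 0.26, adjusted p = 2.10e-05). ID2 measured 392 and 405 units at 24 h, against 1741, 1835 and 1617 units at 4 h (log2 -2.12, SE 0.25), and ID3 measured 6182 and 5114 units at 24 h, against 13314, 15430.5 and 12646 units at 4 h (log2 -1.29, SE 0.16). TGFB2, a ligand, measured 1092 and 1009 units at 24 h, against 3054, 3001 and 3200.1 units at 4 h (log2 -1.55, SE 0.10). The inhibitory factors SMAD7 (-0.78), SKIL (-0.68) and BAMBI (-0.92) were lower as well, and the receptor TGFBR2 (0.67) and the latent TGF-beta binding protein LTBP1 (0.63) rose. The calls of SMAD7 (adjusted p = 0.0839) and SKIL (0.228) were lost without 24 h replicate 3.

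EGF family ligands bind EGFR and its relatives. Of 11 genes 5 fell and 2 rose, beside 5.15% and 9.08% of all genes, and in EtOH 5 fell and 2 rose. HBEGF measured 1156 and 1919.6 units at 24 h, against 3655, 3863 and 3686 units at 4 h (log2 -1.33, SE 0.19), NRG1, neuregulin, measured 62.2 and 55.1 units at 24 h, against 279, 414 and 188 units at 4 h (log2 -2.25, SE 0.28), and TGFA fell by 0.64. ERBB3, the receptor of neuregulin, measured 799 and 955 units at 24 h, against 351, 381 and 268 units at 4 h (log2 1.41, SE 0.14, adjusted p = 3.64e-06). EGFR (-0.05) did not pass. The receptor ERBB2 rose as well, and the remaining genes that fell were EREG and ERRFI1. The calls of ERBB2 and ERRFI1 were lost without either 24 h array and with the replicate block (limma, adjusted p = 0.0518 and 0.0703). That of EREG was lost without 24 h replicate 3, 4 h replicate 1 or 4 h replicate 3. Among 22 junction genes 6 fell and 3 rose, beside the same shares of all genes, and in EtOH 5 fell and 1 rose. CLDN1, a tight junction claudin, measured 4018 and 4522 units at 24 h, against 14821, 15711 and 15896 units at 4 h (log2 -1.86, SE 0.14, adjusted p = 2.00e-07), and OCLN, occludin, measured 3636 and 3859.7 units at 24 h, against 7480.2, 6701 and 6816 units at 4 h (log2 -0.90, SE 0.16). DSC3, a desmosomal cadherin, measured 1384 and 1335 units at 24 h, against 3033, 2933 and 2793 units at 4 h (log2 -1.10, SE 0.08). E-cadherin, CDH1, had a change of -0.02 that did not pass. CLDN4 rose by 1.59 (adjusted p = 0.0421), and its call was lost without any 1 of the 5 arrays (adjusted p = 0.0740 to 0.234). Without 24 h replicate 3, 1 junction gene rose and 3 EGF family genes fell.

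Genes of the stress responses and of ribosome production fell in part. Of 18 genes of the unfolded protein response in the endoplasmic reticulum 5 fell and none rose. Of all genes 5.15% fell and 9.08% rose, and in EtOH 8 of the 18 fell and none rose. HERPUD1, which helps degrade misfolded proteins, measured 2737 and 3365 units at 24 h, against 7024, 7578 and 7270.3 units at 4 h (log2 -1.26, SE 0.10, adjusted p = 2.98e-07). XBP1, a transcription factor of the response, measured 1709 and 1371 units at 24 h, against 3545, 3579 and 3442 units at 4 h (log2 -1.20, SE 0.11), and the chaperone HSPA5 measured 10658 and 12282 units at 24 h, against 18484, 20556 and 16619.7 units at 4 h (log2 -0.69, SE 0.10). Of 20 targets of the antioxidant factor NRF2 6 fell and 2 rose, the rises near the share of all genes. In EtOH 4 of the 20 fell and 2 rose. TXNRD1, thioredoxin reductase, measured 5055 and 6021 units at 24 h, against 10845, 11054 and 10779.7 units at 4 h (log2 -0.98, SE 0.10), and SLC7A11, the cystine transporter, measured 1189 and 1192 units at 24 h, against 2531, 2391 and 2769 units at 4 h (log2 -1.10, SE 0.10). NQO1 (-0.20) and HMOX1 (-0.26), common reporters of the same factor, did not pass. In EtOH 5 of 21 ribosome biogenesis genes fell and none rose. In TAM 10 of the 21 fell and none rose, with WDR43 at 1009.8 and 1071 units at 24 h, against 1957, 1916 and 1742 units at 4 h (log2 -0.85, SE 0.09, adjusted p = 9.83e-06). Without 24 h replicate 3 that count was 3, without 24 h replicate 2 it was 4, and without 4 h replicate 1 it was 5. Among the 15 largest falls was CYP1A1, an enzyme induced through the aryl hydrocarbon receptor, with 3.36 and 3.96 units at 24 h, against 115, 107 and 133 units at 4 h (log2 -5.01), or -1.88 with signals under 32 units set to 32. NHS, a regulator of actin remodelling, measured 393 and 372 units at 24 h, against 1912, 1661 and 1727 units at 4 h (log2 -2.21, SE 0.12), and DLX2, a homeobox factor, 229.8 and 199 units at 24 h, against 1216, 1143 and 1032 units at 4 h (log2 -2.40, SE 0.35). The rest of the 15 largest falls were IFFO2 (-2.95), FBXL18 (-2.39), the lectin-like receptor OLR1 (-2.17), PGBD5 (-2.08) and the folate transporter SLC46A1 (-2.05).

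The time change in TAM was above that in EtOH for 83 genes and below it for 23. POSTN, periostin, a matrix protein of wounds and tumours, measured 3411 and 3304 units at 24 h, against 627, 673 and 677 units at 4 h in TAM (log2 2.35, SE 0.09, adjusted p = 3.99e-10). In EtOH it measured 624, 643 and 555 units at 24 h, against 685, 647 and 684 units at 4 h (log2 -0.15), so that the high level was seen at 24 h of TAM alone among the siSTAT3 groups. BIK, which promotes cell death, measured 4378 and 4517 units at 24 h, against 1969.7, 2118 and 2037 units at 4 h in TAM (log2 1.12, SE 0.12). In EtOH it measured 888, 831 and 833 units at 24 h, against 1310.1, 1356 and 1488 units at 4 h (log2 -0.70, SE 0.11). SNAI2 went the same way, with a TAM change of 0.63 against an EtOH change of -0.78, and the difference was 1.41 (SE 0.12, adjusted p = 2.01e-05). For these 2 genes the direction itself was opposite in drug and vehicle. Another kind of difference was a fall in EtOH that was smaller or not detectable in TAM. INHBA, the activin A subunit, measured 3475 and 4188 units at 24 h, against 5789.7, 6037 and 6050.0 units at 4 h in TAM (log2 -0.64). In EtOH it measured 454, 532 and 471 units at 24 h, against 3537, 3645 and 3779 units at 4 h (log2 -2.91), a difference of 2.27 (SE 0.14, adjusted p = 2.65e-07). IGFBP3, which binds insulin-like growth factors, measured 5005 and 5318 units at 24 h, against 4240.2, 4252 and 3686 units at 4 h in TAM (log2 0.35, adjusted p = 0.311) and fell by 1.97 in EtOH. IL1B fell by 0.66 in TAM and by 2.06 in EtOH, and the difference of 1.40 passed. ALDH3A1, an aldehyde dehydrogenase, showed the reverse, with 218 and 202 units at 24 h, against 486, 369 and 441 units at 4 h in TAM (log2 -1.03, SE 0.16). In EtOH it measured 708, 668 and 605 units at 24 h, against 498, 398 and 405 units at 4 h. The aldo-keto reductases AKR1C1 and AKR1C2 fell in TAM too, with differences from EtOH of -0.64 and -0.73. DSC3 fell by 1.10 in TAM and had a change of -0.19 in EtOH, a difference of -0.91 (SE 0.11, adjusted p = 0.00109). Of the genes that rose in TAM, 58 had a positive difference from EtOH and 1 a negative one, and 6 of the 58 fell in EtOH. Of those that fell in TAM, 18 had a negative difference and 7 a positive one, and 3 of the 18 rose in EtOH.

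**Figure D4:**
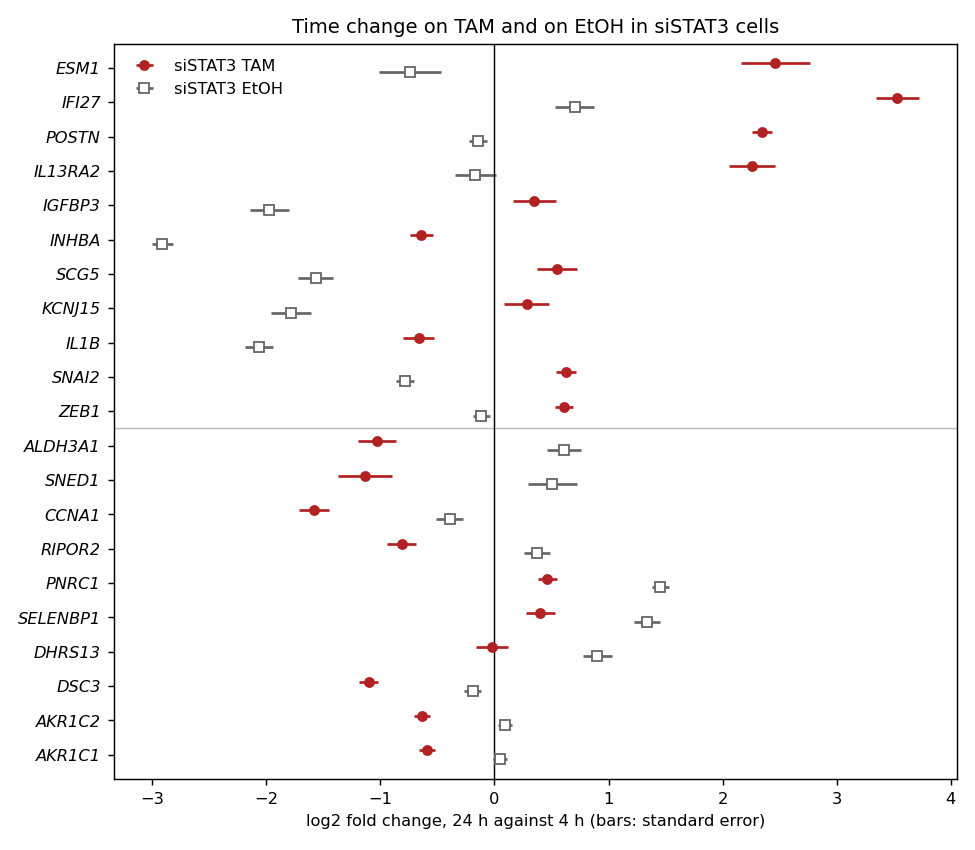
Log2 change from 4 h to 24 h (points, with standard errors as bars) in siSTAT3 cells with TAM and with EtOH for 21 genes whose 2 time changes differed past the test, among them the rule's largest differences in each direction. POSTN, IFI27 and ESM1 rose in TAM far beyond their change in EtOH, and ALDH3A1 and DSC3 moved below it.

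The time change in siSTAT3 cells was above that in siSCM cells for 585 genes and below it for 421. KRT15 measured 7615 and 8572 units at 24 h, against 1722, 1649.7 and 1408 units at 4 h in siSTAT3 cells, but 604, 623 and 715 units at 24 h, against 1404, 1600.4 and 1419 units at 4 h in siSCM cells, a difference of 3.54 (SE 0.18, adjusted p = 2.84e-08). SPRR3 measured 57.9, 76.4 and 20.8 units at 24 h, against 55.8, 78.3 and 90.6 units at 4 h in siSCM cells, which is a difference of 4.28 (SE 0.63, adjusted p = 0.000614). TGM1 fell in siSCM cells by 0.72, while it rose by 0.74 in siSTAT3 cells. Of the 26 keratins and cornified envelope genes 9 had a positive difference, beside 2.96% of all genes, none had a negative one, and the other 17 did not pass. Sterol enzymes showed the same direction. HMGCS1 measured 1854, 1834 and 1939 units at 24 h, against 2663, 2427 and 2719.7 units at 4 h in siSCM cells (log2 -0.47), a difference of 1.21 (SE 0.13, adjusted p = 4.30e-05), and LSS fell there by 0.98, a difference of 1.59. In the list 8 of 18 had a positive difference, and in siSCM cells 2 rose and 5 fell. CLDN1 fell in both, but to 454, 483 and 529 units at 24 h in siSCM cells, against 11359.8, 10993 and 12465 units at 4 h (log2 -4.57, SE 0.12), so the fall was smaller in siSTAT3 cells by 2.71 (SE 0.18, adjusted p = 4.02e-07). IL6 fell by 1.79 in siSTAT3 cells and by 3.78 in siSCM cells, a difference of 2.00 (SE 0.41, adjusted p = 0.00913). Of the junction genes 6 of 22 had a positive difference and none a negative one.

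On the other side were genes that rose at 24 h of TAM in siSCM cells and in siSTAT3 cells rose by less, fell, or did not pass the test. RHOU, a small GTPase, measured 277 and 220.2 units at 24 h, against 87.0, 55.9 and 67.8 units at 4 h in siSTAT3 cells (log2 1.84, SE 0.18), and 6724, 5793 and 6227 units at 24 h, against 43.7, 60.4 and 54.1 units at 4 h in siSCM cells, a difference of -5.06 (SE 0.24, adjusted p = 2.03e-08). RASD1, a Ras-like protein, measured 26.4 and 30.5 units at 24 h, against 60.9, 22.9 and 23.7 units at 4 h in siSTAT3 cells, and 1571, 1545 and 2101 units at 24 h, against 15.9, 18.7 and 19.1 units at 4 h in siSCM cells. IL33, an alarmin cytokine, measured 68.5 and 22.5 units at 24 h, against 15.6, 27.9 and 21.8 units at 4 h in siSTAT3 cells, and 1573, 1631 and 1913 units at 24 h, against 35.8, 36.3 and 54.1 units at 4 h in siSCM cells. The rule took these 3 genes for the size of their difference between siSTAT3 and siSCM cells, so the distance between their arrays is no separate result. SERPINA3, an acute phase protein, measured 1061 and 928 units at 24 h, against 981, 1037 and 1073 units at 4 h in siSTAT3 cells, and 11097, 10068 and 11125 units at 24 h, against 3123, 3309 and 3378 units at 4 h in siSCM cells, a difference of -1.77. TNC, tenascin C, measured 439 and 509.6 units at 24 h, against 843, 900.3 and 842 units at 4 h in siSTAT3 cells, where it fell by 0.87, and rose in siSCM cells (difference -2.87).

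**Figure D5:**
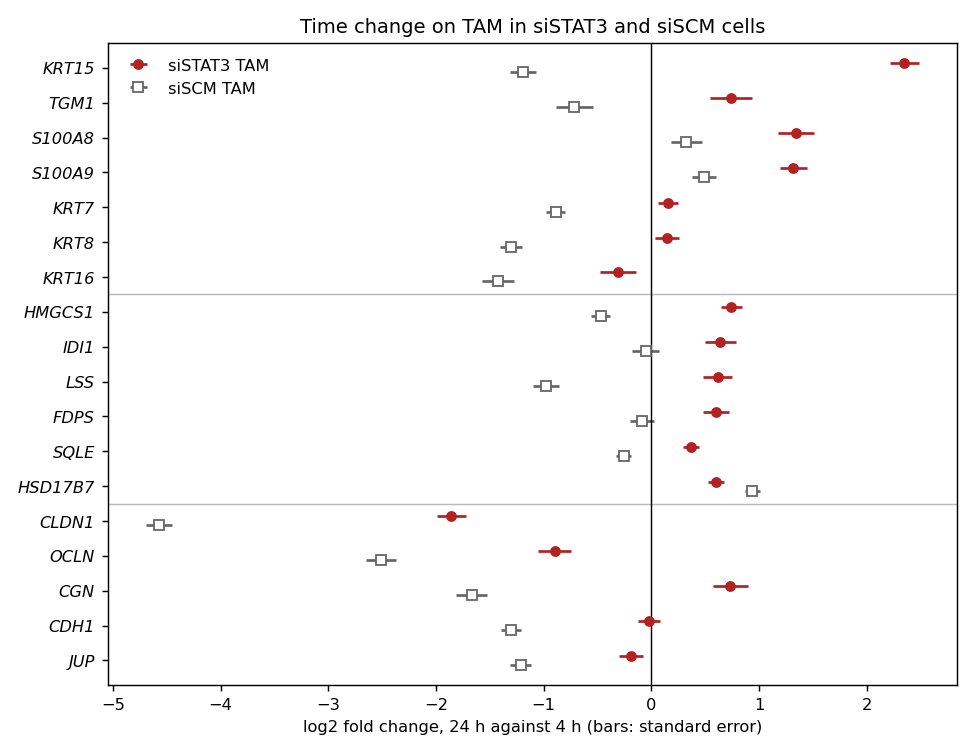
Log2 change from 4 h to 24 h of TAM (points, with standard errors as bars) in siSTAT3 and in siSCM cells for keratins and calprotectin genes, sterol enzymes and junction genes. KRT15, HMGCS1, LSS and TGM1 lie above 0 in siSTAT3 cells and below 0 in siSCM cells, and CLDN1 lies below 0 in both.

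Among 26 acute phase genes and STAT3 targets, 1 rose and 4 fell in siSTAT3 cells, beside 9.08% and 5.15% of all genes, with a median change of -0.02. In siSCM cells 8 rose and 4 fell. The adhesion molecule ICAM1 fell by 0.95, the transcription factor CEBPD by 0.59, the oncostatin receptor OSMR by 0.54 and MYC by 0.44, and the growth factor VEGFA rose by 0.31. The VEGFA call was lost without 24 h replicate 2 (adjusted p = 0.115), 24 h replicate 3 (0.0566) or 4 h replicate 2 (0.0504), and that of MYC without 24 h replicate 3 (0.0971). SOCS3, the feedback inhibitor of the pathway, measured 242 and 112 units at 24 h, against 403, 395 and 299 units at 4 h (log2 -1.14, adjusted p = 0.071). Its change was lower than in siSCM cells by 1.94 on the log2 scale (SE 0.51, adjusted p = 0.0484). For 6 genes of the list the time change was below that in siSCM cells past the test, beside 2.13% of all genes, and for none above it. Of 14 STAT and JAK genes only PIAS1, an inhibitor of STAT proteins, rose, by 0.50, a call lost without 24 h replicate 3 (adjusted p = 0.0572). Of 16 genes that the study names, a choice made with these samples in view, 2 rose and 4 fell. TSC22D3 and the clock factor BMAL2 (0.63) rose, and IL6, ATF3, NFKB1 and MYC fell. The BMAL2 call was lost without 24 h replicate 3 (adjusted p = 0.0872).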

How the data were processed

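RNA from 23 samples of the cell line was hybridised by the authors to Affymetrix human arrays. The intensity values that the authors deposited had been summarised per probe set and scaled with MAS5, and are linear; the scaling target is not given in the sources used here. Groups were taken from the sample labels, and the files held no column of comparisons by the authors. Signals were log2 transformed with nothing added. With limma (version 3.58.1, R 4.3.3) a model of group means was fitted over the 23 arrays, and its moderated tests had 15 residual and 1.27 prior degrees of freedom. p-values were adjusted by Benjamini-Hochberg across the 54675 probe sets within each comparison, with a threshold of 0.05. The difference between 2 time changes was tested as a contrast in the same fit.

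Of the probe sets 41097 had 1 gene symbol, 1801 had several and 11777 had none in the platform annotation. Each of 19775 genes was represented by the brightest (by mean log2 signal) of its single-symbol probe sets, no fold was taken between probe sets, marker signals were summed as a description, and list counts cover members with such a probe set. The deposited values carry no count of reads, and precision is limited by how many arrays each group has. Signals under 32 units lie low, where folds depend on the lowest signals. Genes were named by a rule: genes the study names, the 15 largest rises and falls among called genes whose brighter group averaged 100 units or more and whose arrays did not overlap, the 8 largest differences in each direction, and the 5 largest called changes of each list. Genes named beyond it were chosen after their values were seen. The lists, the comparison and its members were chosen with earlier results of these data known.

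Data were simulated from these arrays over 54675 probe sets, with independent normal noise and no other difference between groups. For 24 h against 4 h of TAM in siSTAT3 cells, 50 probe sets were changed by each size. These were drawn only from probe sets that averaged at least 100 units. The test recovered 100% of log2 changes of -2, 80% of -1, 72% of 1 and 92% of 2, with 8 false calls. Recovery at lower signals was not tested. Alternatives were a fit to the contrast's own arrays, a replicate block, a minimum of 100 units, signals under 32 units set to 32, an intensity trend with robust priors, quantile normalization, median centring, the methods' limits (unadjusted p under 1e-04 and a log2 change over 0.5), any probe set of a gene, and leaving out each array. Promoter sequences and motif searches used RefSeq tables for GRCh38.p14. Figures were drawn with matplotlib 3.10.9, pandas 2.3.3 and numpy 2.4.6.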

Additional observations from a re-analysis of the deposited data

Results flagged for a closer look

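In siSTAT3 cells the time change on TAM minus the time change on EtOH passed a test of that difference (limma, 16 genes singled out by size among those with at least 100 units in at least 1 group). The difference was positive for ESM1, an endothelial proteoglycan (3.20, SE 0.41, adjusted p = 0.00117), IFI27 (2.83, SE 0.26, adjusted p = 5.83e-05), POSTN (2.50, SE 0.12, adjusted p = 1.59e-08) and the decoy receptor IL13RA2 (2.43, SE 0.27, adjusted p = 0.000359). It was also positive for IGFBP3 (2.32, SE 0.25), INHBA (2.27, SE 0.14), SCG5 (2.12, SE 0.24) and the potassium channel KCNJ15 (2.07, SE 0.26). It was negative for ALDH3A1 (-1.64, SE 0.22), SNED1 (-1.64, SE 0.32), the germ cell cyclin CCNA1 (-1.19, SE 0.18) and RIPOR2 (-1.19, SE 0.17). It was also negative for PNRC1 (-0.99, SE 0.11), SELENBP1 (-0.94, SE 0.17), DHRS13 (-0.92, SE 0.19, adjusted p = 0.0499) and DSC3 (-0.91, SE 0.11).

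On TAM the siSTAT3 time change, less the siSCM one, likewise passed a test of the difference for 16 genes singled out by size. It was positive for IL32 (4.57, SE 0.94), SYT14 (4.49, SE 1.12), KLK5 (4.47, SE 1.03) and SPRR3 (4.28, SE 0.63). It was positive too for KLK10 (4.12, SE 0.83), COXFA4L3 (4.03, SE 0.38), the metalloreductase STEAP4 (3.55, SE 0.39) and KRT15 (3.54, SE 0.18). It was negative for RASD1 (-6.77, SE 0.58), TEK (-5.98, SE 1.09), OLFM4 (-5.61, SE 0.92) and PAEP (-5.32, SE 1.02). It was negative too for RHOU (-5.06, SE 0.24), GZMB (-4.79, SE 1.03), IL33 (-4.47, SE 0.89) and the acute phase protein CRP (-4.45, SE 0.98). RASD1, TEK, OLFM4, PAEP, GZMB, IL33, CRP, IL32, SYT14, KLK5, KLK10 and SPRR3 had signals under 32 units on some of these arrays, where a log2 value depends on the lowest signals.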

How the results depend on the processing

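With 2 arrays at 24 h the calls rest on the spread of all 8 groups. Fitted to the contrast's own arrays, limma called 0 genes that rose and 0 that fell (2080 and 1316 at an unadjusted p under 0.05, of which 1471 and 803 were among the called genes), 10 and 0 for the difference from EtOH and 187 and 176 for that from siSCM. Leaving out 1 array in turn gave 975 to 1688 genes that rose and 592 to 892 that fell. For the difference from EtOH it gave 41 to 68 positive and 10 to 43 negative, and for that from siSCM 332 to 525 positive and 267 to 387 negative, the lowest positive counts and the lowest siSCM counts without siSTAT3 TAM 24 h replicate 3. The methods' limits gave 672 and 359 genes for the time change and 261 and 213 for the difference from siSCM. A minimum of 100 units gave 165 and 53 for the difference from EtOH and 997 and 653 for that from siSCM; signals under 32 units set to 32 gave 171 and 64, and 982 and 675; an intensity trend with robust priors gave 145 and 52, and 884 positive for siSCM. Median centring gave 15 negative differences from EtOH. Other counts, under quantile normalization, any probe set and the remaining settings, stayed within 1.5 times, and none of the called named genes changed direction under the settings run for single genes. A replicate block gave 1687 and 969 genes for the time change, 70 and 18 for the difference from EtOH and 545 and 382 for that from siSCM. Replicate numbers were not used as pairs, since deviations from the group means of 77 pairs of arrays with the same number had a median correlation of 0.0276 (11 over 0.1) and those of 154 other pairs -0.0172 (9 over 0.1). Of 181 called genes named by the rule, 173 were called with the block, 178 with the floor, 172 with centring, 149 without 24 h replicate 2 and 134 without 24 h replicate 3. Of 100 called genes named beyond the rule, 93, 100, 82, 64 and 51 were called under the same settings in turn. The causes of these shifts were not tested.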
